A study of Mus musculus with 3 samples.

Results

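C-type lectin receptors are surface proteins that bind sugars, lipids or other ligands through a C-type lectin-like domain. Of 10 genes of this family named for description, 9 had a row among the 27998 genes of the count matrix: Clec4b1, Clec10a, Clec12a, Clec9a, Clec4a3, Cd209a, Cd209f, Mgl2 and Mrc1. The members were chosen by symbol, with earlier results of these data known. Clec7a was not analysed here. The cells came from the whole brain without cerebellum of 5-month-old female C57BL6J mice and were sorted with an antibody against Cd11b, an integrin chain found on myeloid cells, microglia included. The labels describe 3 groups with 1 library each. Ctrl was 1 untreated animal. D0 pooled 2 animals fed for 14 days with PLX5622 at 1200 mg/kg of diet. PLX5622 is an inhibitor of Csf1r, the receptor whose signal microglia need to survive. D2 was 1 animal that received PLX5622 in the same way for 14 days and then control diet for 2 days.

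C-type lectin receptors let myeloid cells take up glycosylated antigens, sense microbes and dead cells, and raise or lower the signal of other receptors. Many mark 1 branch of the myeloid lineage. In the brain, Mrc1 is a known marker of the macrophages at the borders (meninges, perivascular space and choroid plexus), while resident microglia of the parenchyma carry little of it. Some activating members pair with the adaptor encoded by Fcer1g and signal through Syk, and inhibitory members carry a tyrosine motif that recruits phosphatases.

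Cells were assigned to libraries by the number that ends their barcodes, 1, 2 or 3, and no source used here ties these numbers to Ctrl, D0 or D2. They are called library 1, 2 and 3. Values are given side by side, with no comparison of the study's groups and no test, since each group has 1 library. After filtering, 1261, 592 and 284 cells remained, with median depths of 3660, 6215 and 8143 unique molecular identifiers (UMIs) per cell, and no barcode was shared between libraries. The libraries differed in their cells. Although every library was labelled microglia, the share of cells called microglia-like from their markers was 85.6%, 8.28% and 0.704% in libraries 1, 2 and 3. Dendritic cell-like cells numbered 37, 156 and 44, and monocyte-like cells 9, 76 and 64. Levels are counts per 1000000 UMIs (CPM) of the summed cells of a class, and the ranges in brackets are exact Poisson 95% intervals for CPM and exact Clopper-Pearson 95% intervals for shares. Both cover counting error only, not the spread between animals. C-type lectin genes took no part in the clustering or in the marker lists that named the clusters, so the levels by class are separate from the naming.

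All 9 members had their highest level outside microglia-like cells, among the 9 classes with at least 20 cells, 1 of which is an unnamed cluster. This was also so for 78.2% of the 9686 genes with at least 50 UMIs. Over 50% of the UMIs lay in a single class for 6 of the 9 members, against 35.9% of those genes. For Clec9a, 1 of the 6, the share was 52.3% of 44 UMIs (36.7 to 67.5), an interval that spans 50%. With 44 UMIs, Clec9a is also below the 50 UMIs asked of those genes. More than 3 UMIs in microglia-like cells were found for 8 of the 9, against 95.7%. Without library 1, which held 1080 of the 1131 microglia-like cells, the count was 2. The share of all genes was not taken for the few cells left, so this count is not a result about the members. The members led in 4 classes: Cd209a, Mgl2, Clec10a, Clec4b1 and Clec9a in dendritic cell-like cells, Mrc1 and Cd209f in border-associated-macrophage-like cells, Clec12a in monocyte-like cells, and Clec4a3 in non-classical monocyte-like cells.

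**Figure D1:**
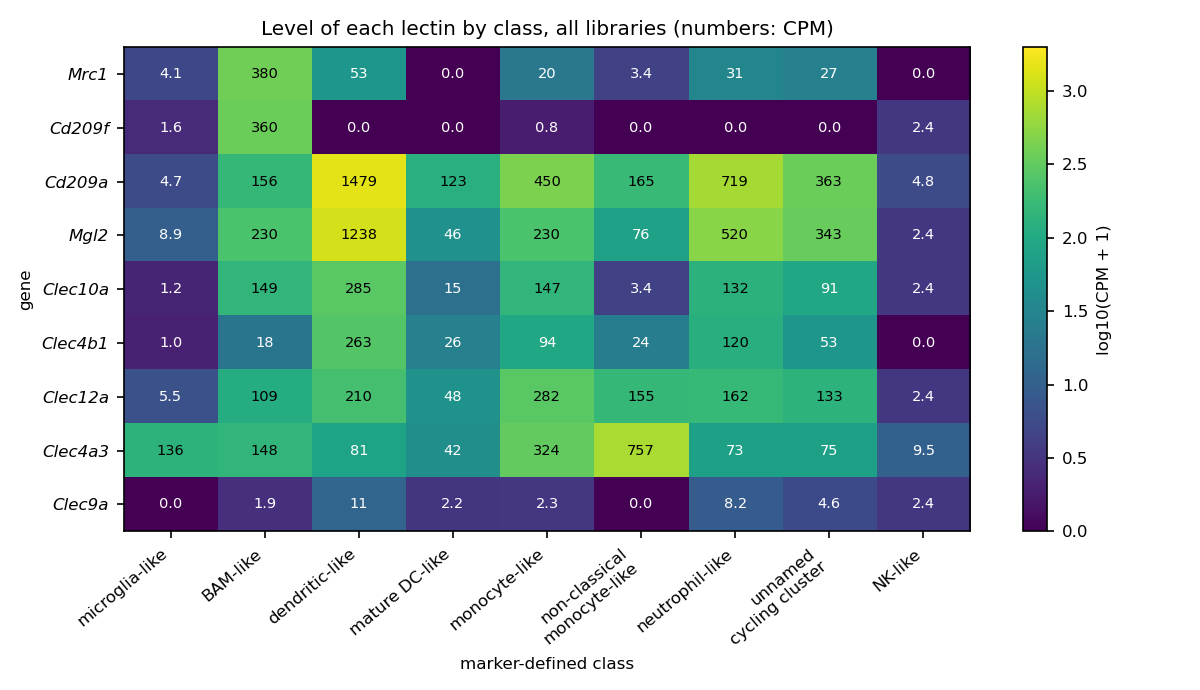
Level of each lectin gene (rows) in 9 marker-defined classes (columns) over all 3 libraries, with the colour on a log10(CPM + 1) scale and the CPM written in each field (BAM: border-associated macrophage; DC: dendritic cell). Cd209a and Mgl2 reached 1479 and 1238 CPM in dendritic cell-like cells, and Cd209f was at or near 0 outside the BAM-like cells.

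Promoter sequences are shown for 3 genes that led in dendritic cell-like cells and for the pair that led in border-associated-macrophage-like cells, because these groups shared a pattern across the classes. They come from RefSeq on GRCm38.p6 and are printed 5′ to 3′ along the gene's strand, up to the base before the first exon that GENCODE annotates. Capitals mark GAGGAA, a core of the sites of the myeloid factor PU.1, or its reverse complement TTCCTC. The sequences of Cd209a (chr8:3748985-3749134, minus strand), Mgl2 (chr11:70130179-70130328, plus strand), Clec4b1 (chr6:123049812-123049961, plus strand), Mrc1 (chr2:14229242-14229391, plus strand) and Cd209f (chr8:4105836-4105985, minus strand) follow.
Cd209a: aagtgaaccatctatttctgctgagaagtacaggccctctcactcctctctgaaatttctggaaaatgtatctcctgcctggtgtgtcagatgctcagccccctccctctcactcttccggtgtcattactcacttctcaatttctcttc
Mgl2: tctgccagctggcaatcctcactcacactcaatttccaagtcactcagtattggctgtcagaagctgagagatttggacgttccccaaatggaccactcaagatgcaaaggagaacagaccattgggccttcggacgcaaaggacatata
Clec4b1: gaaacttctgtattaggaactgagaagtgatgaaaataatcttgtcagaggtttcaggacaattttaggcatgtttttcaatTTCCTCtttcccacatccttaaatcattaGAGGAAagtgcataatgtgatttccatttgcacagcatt
Mrc1: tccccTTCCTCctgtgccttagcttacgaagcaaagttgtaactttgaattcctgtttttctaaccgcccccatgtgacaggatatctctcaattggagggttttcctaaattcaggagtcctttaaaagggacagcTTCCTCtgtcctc
Cd209f: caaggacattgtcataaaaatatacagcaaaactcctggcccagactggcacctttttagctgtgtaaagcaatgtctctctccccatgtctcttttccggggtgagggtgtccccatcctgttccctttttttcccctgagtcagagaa
Some genes have several promoter entries, and a gene was counted when any of them matched. In the 250 bases before the start, GAGGAA was found on either strand in 5 of the 8 members with a promoter entry (Clec12a, Clec4a3, Clec4b1, Mgl2 and Mrc1), against 25.9% of 27025 genes. TATAAA was found in Cd209a, Cd209f and Clec9a, 3 of 8, against 14.3%. The GAGGAA match of Mgl2, 1 of the 3 of Mrc1 and the TATAAA matches of Cd209a and Cd209f lie outside the stretches printed. Presence of GAGGAA did not follow the class that led: it was found in Mrc1 and not in Cd209f, and in Clec4b1 and Mgl2 and not in Cd209a. These are matches of letters, not measured sites.

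Cd209a and Mgl2 were concentrated in the dendritic cell-like cells. Cd209a (ENSMUSG00000031494, GRCm38 chromosome 8, 3743397 to 3748984) encodes a mouse homologue of the human adhesion and pathogen receptor DC-SIGN. Of its 5130 UMIs, 3081 lay in the 237 dendritic cell-like cells (60.1%, 58.7 to 61.4), at 1479 CPM (1427 to 1532). Its level there was 1255 CPM (1136 to 1383), 1658 CPM (1591 to 1728) and 1051 CPM (953 to 1156) in libraries 1, 2 and 3. Library 2 was the highest and its interval overlapped neither of the others. The next class was neutrophil-like at 719 CPM (663 to 778), followed by monocyte-like at 450.0 CPM (414 to 488). Of the 617 Cd209a UMIs in neutrophil-like cells, 600 lay in 66 cells that a finer clustering set apart from the cells led by granule genes, as described below. NK cell-like cells, taken as a class without these genes, had 2 Cd209a UMIs, or 4.76 CPM (0.577 to 17.2).

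Mgl2 (ENSMUSG00000040950, chromosome 11, 70130329 to 70137550) encodes CD301b, a lectin for galactose and N-acetylgalactosamine that marks a set of dendritic cells and macrophages. It had 1238 CPM (1190 to 1286) in dendritic cell-like cells, from 2578 of its 4176 UMIs (61.7%, 60.2 to 63.2). The 3 libraries stood at 1128 CPM (1015 to 1250), 1200 CPM (1143 to 1260) and 1453 CPM (1337 to 1576) in order of their numbers. Here library 3 was the highest, so Cd209a and Mgl2 did not rank the libraries alike by CPM. After each cell was thinned to 2000 UMIs, 179 of 236 dendritic cell-like cells had a Cd209a UMI (75.8%, 69.9 to 81.2) and 150 an Mgl2 UMI (63.6%, 57.1 to 69.7). Both were found in 123 cells and neither in 30. By library, the thinned shares with Cd209a were 69.4% (51.9 to 83.7), 78.8% (71.6 to 85.0) and 70.5% (54.8 to 83.2). Those with Mgl2 were 63.9% (46.2 to 79.2), 61.5% (53.4 to 69.2) and 70.5% (54.8 to 83.2). The intervals overlapped for both genes, so these shares gave no order of the libraries. In NK cell-like cells each gene was found in 1 of 109 thinned cells (0.917%, 0.0232 to 5.01). Median depths before thinning were 8242 and 3025 UMIs, and the shares without thinning were 83.5% and 72.6% in dendritic cell-like cells. When the 7 called doublets were kept, the clusters regrouped, the dendritic cell-like class grew to 419 cells, and the genes stood there at 968 and 811 CPM.

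Clec10a and Clec4b1 followed at lower levels. Clec10a (ENSMUSG00000000318, chromosome 11, 70156197 to 70170834) encodes CD301a, a close relative of Mgl2, and lies beside it. Of the 50-base windows in the last 500 bases of its transcripts, 13.8% also occur in Mgl2, so reads of these genes can be shared. It had 285 CPM (262 to 309) in dendritic cell-like cells, then 149 CPM (126 to 174) in border-associated-macrophage-like and 147 CPM (127 to 170) in monocyte-like cells, which did not differ beyond counting error. Within dendritic cell-like cells it stood at 115 CPM (80.7 to 158), 331 CPM (301 to 363) and 265 CPM (217 to 320) in libraries 1, 2 and 3. Library 1 was below both others, and its level was also below that of the same library's border-associated-macrophage-like cells, 170.4 CPM (145 to 199), with overlapping intervals. In library 1 these classes could therefore not be ranked for Clec10a beyond counting error. With doublets kept, border-associated-macrophage-like cells led for Clec10a over all libraries at 219 CPM. Of the 83 thinned dendritic cell-like cells with Clec10a, 75 also had Cd209a (90.4%) and 49 had Mgl2 (59.0%).

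Clec4b1 (ENSMUSG00000030147, chromosome 6, 123049962 to 123071555) encodes an activating receptor that pairs with the Fcer1g adaptor, and shares 12.9% of such windows with Clec4a2. It had 263 CPM (242 to 286) in dendritic cell-like cells, from 548 of 896 UMIs (61.2%, 57.9 to 64.4). The libraries stood at 179.7 CPM (136 to 232), 279 CPM (252 to 309) and 275 CPM (226 to 331). Library 1 was again the lowest, below library 2 beyond counting error and overlapping library 3. Neutrophil-like and monocyte-like cells came next at 120.0 CPM (98.0 to 146) and 93.9 CPM (77.9 to 112), with overlapping intervals. Of the 103 UMIs in neutrophil-like cells, 96 lay in 66 of these cells that a finer clustering set apart, as described below. In border-associated-macrophage-like cells it had 18.1 CPM (10.9 to 28.3), against 149 CPM of Clec10a in the same cells.

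The share of each gene's UMIs shows how far the members were spread. Thinned dendritic cell-like cells carried a median of 3 of the 9 members, and 130 of 236 carried at least 3 (55.1%). At least 3 members were found in 36 of 106 border-associated-macrophage-like cells (34.0%), in 2 of 1058 microglia-like cells (0.189%) and in 0 of 109 NK cell-like cells. Mature dendritic cell-like cells, which were led by Ccr7, Ccl22 and Il12b, carried few. Cd209a had 123 CPM (93.0 to 160) there and Mgl2 46.1 CPM (28.6 to 70.5), and 31 of the 52 Cd209a UMIs of library 2 came from 1 cell. In that library, which held 54 of the 59 cells, the Cd209a level of mature dendritic cell-like cells was 124 CPM, against 1658 CPM in dendritic cell-like cells.

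**Figure D2:**
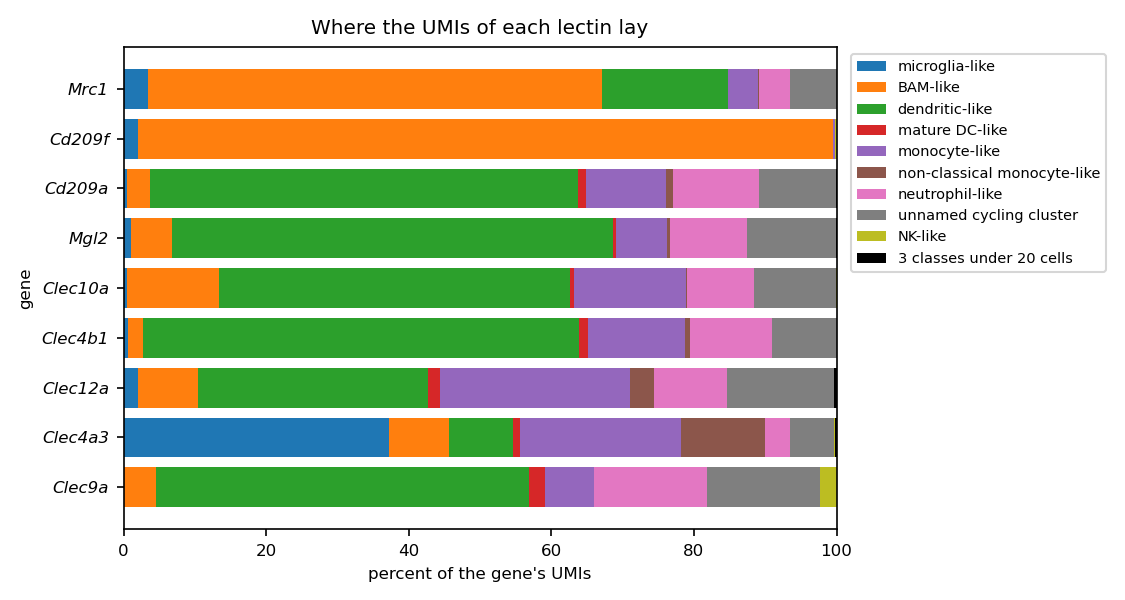
Percent of each lectin gene's UMIs (horizontal axis) in each marker-defined class (colours), all libraries together. Most UMIs of Cd209a, Mgl2 and Clec4b1 lay in dendritic cell-like cells, as did 52.3% (36.7 to 67.5) of the 44 UMIs of Clec9a. In BAM-like cells lay 97.4% of Cd209f, and Clec4a3 had its largest part, 37.2%, in the 1131 microglia-like cells.

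Mrc1 and Cd209f were the macrophage members. Mrc1 (ENSMUSG00000026712, chromosome 2, 14229392 to 14332057) encodes the mannose receptor CD206, which takes up mannosylated glycoproteins. It had 379.7 CPM (343 to 419) in border-associated-macrophage-like cells, from 398 of 624 UMIs (63.8%, 59.9 to 67.6). This was 7.19 times its level in the next class, dendritic cell-like, at 52.8 CPM (43.4 to 63.6). Cd209f (ENSMUSG00000051906, chromosome 8, 4102787 to 4105835) is another mouse gene of the CD209 family. It had 359.7 CPM (324 to 398), and 377 of its 387 UMIs lay in this class (97.4%, 95.3 to 98.8). In dendritic cell-like cells, where Cd209a led, Cd209f had 0 UMIs, which allows up to 1.44 CPM. Of the windows at the end of Cd209f transcripts, 37.1% also occur in Cd209g, which itself had 130 of 134 UMIs in the same class.

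All macrophage values of both genes came from library 1. There the class had 89 cells, with 434.8 CPM of Mrc1 (393 to 480) and 412 CPM of Cd209f (371 to 456). Libraries 2 and 3 had 11 and 6 cells in the cluster and 0 UMIs of either gene, which allows up to 63.0 and 35.2 CPM. Those 17 cells went against the name of the cluster. They had 1 UMI of Pf4 and 0 UMIs of Lyve1, Cd163, Folr2 and F13a1. The markers Ms4a7, Stab1 and Cbr2 had 11, 7 and 2 UMIs, each in 2 of the 17 cells. Dcn, a fibroblast gene, had 447 of its 455 UMIs in 4 of them, and 1500015O10Rik had 238 of its 239 UMIs in 9. The library 1 values are therefore the levels without these cells. Without library 1, the highest Mrc1 level lay in dendritic cell-like cells, at 51.7 CPM. A count of cells by markers instead of clusters found 75 cells with at least 4 of the 10 macrophage markers in library 1, 1 in library 2 and 13 in library 3. Mrc1 was detected in 64, 1 and 3 of them, and Cd209f in 38, 0 and 0. Of the 13 cells of library 3, 7 lay in an unnamed cycling cluster and 4 in the monocyte-like cluster. The cluster also met the naming rule for all 12 microglia markers, 1 of them among its 10 leading genes. Its cells in library 1 had a median depth of 8655 UMIs, against 3382 UMIs in that library's microglia-like cells. Whether doublets had a part in these values was not tested. When each cell was named by itself, 13 cells were macrophage-like, with 618 CPM of Mrc1 and 209.6 CPM of Cd209f. Among classes of at least 20 cells Cd209f was then highest in microglia-like cells at 52.5 CPM and Mrc1 in dendritic cell-like cells at 59.3 CPM. That naming gave each cell the marker list with the largest share of its UMIs. In the border-associated-macrophage-like class the microglia list summed to 18511.5 CPM, against 3420 CPM of the macrophage list. Whether macrophages were named microglia-like by it was not tested.

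Over all cells, Cd209f had 60.5 CPM (54.6 to 66.8) in library 1 and 0 UMIs in libraries 2 and 3, which allows up to 0.753 and 1.08 CPM. The level of library 1 was 80.4 times the limit of library 2 and 56.2 times that of library 3. These ratios leave out the counting error of library 1 and are not lower bounds. The upper ends of the exact Poisson intervals were higher than these limits, at 0.925 and 1.32 CPM. Mrc1 over all cells had 68.8 CPM (62.5 to 75.5), 32.6 CPM (27.2 to 38.7) and 19.4 CPM (14.6 to 25.3). Dendritic cell-like cells of every library carried it, at 58.9 CPM (35.4 to 91.9), 54.4 CPM (42.7 to 68.3) and 42.4 CPM (24.7 to 68.0) in libraries 1, 2 and 3, with overlapping intervals. Fewer cells of a class and less RNA per cell cannot be told apart in the values over all cells. Within the thinned dendritic cell-like cells, 21 of the 23 cells with Mrc1 had Mgl2 (91.3%) and 15 had Cd209a (65.2%).

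Other members were found in the macrophages of library 1 as well: Mgl2 at 263 CPM (231 to 299), Cd209a at 177 CPM (151 to 206), Clec4a3 at 164 CPM (139 to 192) and Clec12a at 119 CPM (97.8 to 144). The same cells did not carry all of them. Of 89 thinned cells, 45 had Mrc1 and 25 had Cd209f, and 19 had both. Border macrophages are known to include cells with low and high MHC class II. The cells were therefore divided by Cd74, the chaperone of class II molecules, at 3 UMIs after thinning. This division was chosen after the values had been seen. The 41 cells with at least 3 Cd74 UMIs had Cd209f in 12.2% (4.08 to 26.2) and Clec10a in 9.76% (2.72 to 23.1). The other 48 had them in 41.7% (27.6 to 56.8) and 35.4% (22.2 to 50.5). Mgl2 and Clec12a ran the other way, at 43.9% (28.5 to 60.3) and 34.1% (20.1 to 50.6) against 18.8% (8.95 to 32.6) and 14.6% (6.07 to 27.8). Of these 4 genes, only for Cd209f did the intervals not overlap. Mrc1 was at 48.8% (32.9 to 64.9) and 52.1% (37.2 to 66.7). The macrophage marker Lyve1 was at 7.32% (1.54 to 19.9) and 12.5% (4.73 to 25.2), with overlapping intervals. Median depths before thinning were 6665 and 9967 UMIs.

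**Figure D3:**
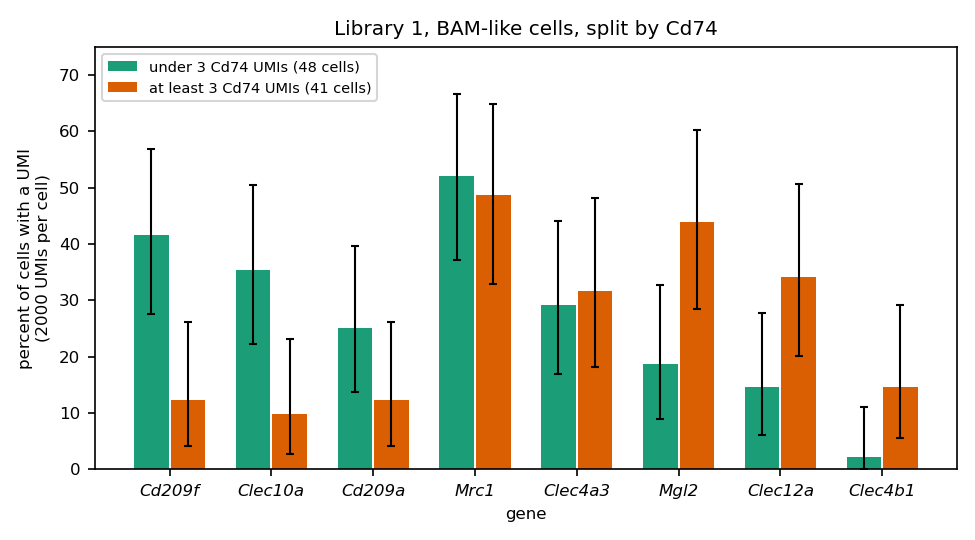
Percent of border-associated-macrophage-like (BAM-like) cells of library 1 with at least 1 UMI of each lectin gene after thinning to 2000 UMIs per cell. Cells with at least 3 Cd74 UMIs after the same thinning are orange (41 cells) and the others green (48 cells), with Clopper-Pearson 95% intervals. Cd209f was found in 41.7% of the green and 12.2% of the orange cells, and Mrc1 in 52.1% and 48.8%, with overlapping intervals.

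Over all cells, Cd209a, Mgl2, Clec10a and Clec4b1 were lowest in library 1 and highest in library 2, with no overlap of intervals among the libraries. Cd209a had 95.7 CPM (88.3 to 104), 920 CPM (890.2 to 950.0) and 306 CPM (286 to 327) in libraries 1, 2 and 3. Mgl2 had 105 CPM (96.8 to 113), 582 CPM (558 to 606) and 427 CPM (403 to 452). Clec10a had 33.9, 187 and 87.2 CPM, and Clec4b1 13.3, 150.3 and 76.1 CPM. Clec12a had 37.5 CPM (32.9 to 42.6) in library 1 and 165 CPM in both others. Clec4a3 differed least, at 138 CPM (129 to 147), 126 CPM (115 to 138) and 169 CPM (154 to 185). Shares of dendritic cell-like cells were 2.93%, 26.4% and 15.5% in the 3 libraries.

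Clec12a and Clec4a3 were the members with their highest levels in a monocyte class. Clec12a (ENSMUSG00000053063, chromosome 6, 129342691 to 129365303) encodes an inhibitory receptor that recognises uric acid crystals. It had 282 CPM (253 to 312) in monocyte-like cells and 210.3 CPM (191 to 231) in dendritic cell-like cells. Neutrophil-like cells had 162 CPM (136 to 191). Its UMIs were spread, with 438 of 1358 in dendritic cell-like cells (32.3%) and 363 in monocyte-like cells (26.7%). Thinned shares of cells with a UMI overlapped, at 37.6% (29.8 to 45.9) in monocyte-like and 32.2% (26.3 to 38.6) in dendritic cell-like cells. In monocyte-like cells it stood at 329.7 CPM (283 to 382) in library 2, against 242 CPM (208 to 282) in library 3, and the 9 cells of library 1 had 17 UMIs. In dendritic cell-like cells the libraries had 198 CPM (153 to 253), 202 CPM (179 to 228) and 247 CPM (201 to 301), with overlapping intervals. The monocyte-like level was the higher in library 2, while in library 3 the intervals of both classes overlapped. With lectin genes kept in the clustering, Clec12a was highest in an unnamed cluster of 40 cells, at 275 CPM.

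Clec4a3 (ENSMUSG00000043832, chromosome 6, 122952515 to 122969875) belongs to the dendritic cell immunoreceptor family. It had 757 CPM (660 to 864) in the 73 non-classical monocyte-like cells and 324 CPM (293 to 356) in monocyte-like cells. The non-classical cells of libraries 2 and 3 stood at 716 CPM (543 to 928) and 781 CPM (659 to 920.1), and the 6 cells of library 1 had 19 UMIs. In thinned cells, 53 of 68 non-classical monocyte-like cells had a UMI (77.9%, 66.2 to 87.1), against 1 of 109 NK cell-like cells (0.917%, 0.0232 to 5.01), with median depths of 3265 and 3025 UMIs. Among the other members, Clec12a had 155 CPM (113 to 207) in the class. Cd209a in the non-classical cells of library 2 had 38 UMIs, all from 1 cell, and both Clec10a and Mrc1 had 1 UMI in the whole class.

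Clec4a3 was also the member that microglia-like cells carried. They had 690 of its 1854 UMIs (37.2%, 35.0 to 39.5), at 136 CPM (126 to 146), and 253 of 1058 thinned cells had a UMI (23.9%, 21.4 to 26.6). Library 1 stood at 133 CPM (123 to 144) and library 2, with 49 cells, at 214 CPM (153 to 289.7), and these intervals did not overlap. The library 2 level came from 41 UMIs in 25 cells. The shares of thinned cells with a UMI did overlap, at 23.9% (21.3 to 26.6) and 25.6% (13.5 to 41.2). The 2 cells of library 3 had 0 UMIs, too few to set a level. The 3 microglia-like clusters had 148 CPM (130.1 to 167), 138 CPM (123 to 156) and 117 CPM (99.3 to 136). The other members were scarce there. Over all libraries, the share of thinned microglia-like cells with a UMI was at most 0.756% for each of the other 8, and their levels were at most 8.85 CPM, the value of Mgl2. These low levels were not even across the class. The third of the clusters, with 195 cells and a median depth of 5867 UMIs, had 17.0 CPM of Clec12a (10.8 to 25.5), against 0.582 CPM (0.0147 to 3.24) in the first, whose median depth was 2848 UMIs. Mgl2 had 26.6 CPM (18.6 to 36.8) and 3.49 CPM (1.28 to 7.60) in these clusters, and Mrc1 10.3 CPM (5.66 to 17.4) and 1.74 CPM (0.360 to 5.10). In the third cluster 25 of the 36 Mgl2 UMIs came from 1 cell, while the 14 Mrc1 UMIs came from 10 cells and the 23 of Clec12a from 9. The part of depth in these values was not tested. By library, Cd209a had 31.3 CPM (11.5 to 68.0) from 6 UMIs in the 49 microglia-like cells of library 2, against 3.70 CPM (2.19 to 5.84) in library 1. With each cell named by itself, 1293 cells were microglia-like and had 73.0 CPM of Mgl2, 66.5 CPM of Cd209a and 55.2 CPM of Mrc1. Whether the higher values came from macrophages or cells of other classes was not tested. Clec9a had 0 UMIs, which allows up to 0.590 CPM.

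The monocyte-like, neutrophil-like and cycling cells differed between libraries in the members led by dendritic cell-like cells. In monocyte-like cells, Cd209a had 771 CPM (698 to 850) in library 2, against 231 CPM (197 to 269) in library 3. Clec10a had 248 and 74.7 CPM there, and Clec4b1 148 and 57.8 CPM, also without overlap of the intervals. Mgl2 had 225 CPM (187 to 270) and 249.5 CPM (214 to 289), with overlap. The pattern was alike in the unnamed cluster of 101 cells led by cell cycle genes such as Birc5 and Top2a, which had a median depth of 13655 UMIs. Cd209a stood there at 886 CPM (795 to 985) in library 2, against 177 CPM (153 to 204) in library 3, and Mgl2 at 400 CPM (339 to 468) and 321 CPM (288 to 356). A few cells carried much of these levels. In monocyte-like cells of library 3, the top 10% of the cells held 81.1% of the Cd209a UMIs and 87.0% of the Mgl2 UMIs. The monocyte-like level of Cd209a, 450.0 CPM over all libraries, was 227 CPM without library 2 and 718 CPM without library 3. With called doublets kept, the monocyte-like class shrank from 149 to 78 cells and had 56.8 CPM of Cd209a and 7.32 CPM of Mgl2, while the dendritic cell-like class grew to 419 cells. The values of these members in monocyte-like cells thus depended on where the clusters divided.

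Neutrophil-like cells had 719 CPM of Cd209a and 520 CPM of Mgl2 (473 to 570.2). These came from 870.1 and 586 CPM in library 2, 378 and 447 CPM in library 3 and 0 UMIs of either in the 13 cells of library 1. The intervals of libraries 2 and 3 overlapped for Mgl2 and not for Cd209a. Without library 2 the class had 275 CPM of Cd209a and 326 CPM of Mgl2. At the finer Leiden resolution of 1.0 its 129 cells fell into 2 clusters. The 66 cells in a cluster led by S100a8 and S100a9 with H2-Eb1, a class II gene, had 1053 CPM of Cd209a (970.0 to 1140.2) and 758 CPM of Mgl2 (688 to 833). That cluster also held 2 dendritic cell-like cells, which these values leave out. The other 63 cells, in a cluster led by the granule genes Camp and Ngp, had 59.0 CPM (34.4 to 94.5) and 48.6 CPM (26.6 to 81.5). Clec4b1 had 168 CPM (136 to 206) in the 66 cells and 24.3 CPM (9.77 to 50.1) in the 63. Clec10a had 198 CPM (163 to 238) in the 66 cells and 0 UMIs in the 63. Clec12a, in contrast, stood at 147 CPM (118 to 182) and 191 CPM (144 to 248), with overlapping intervals.

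**Figure D4:**
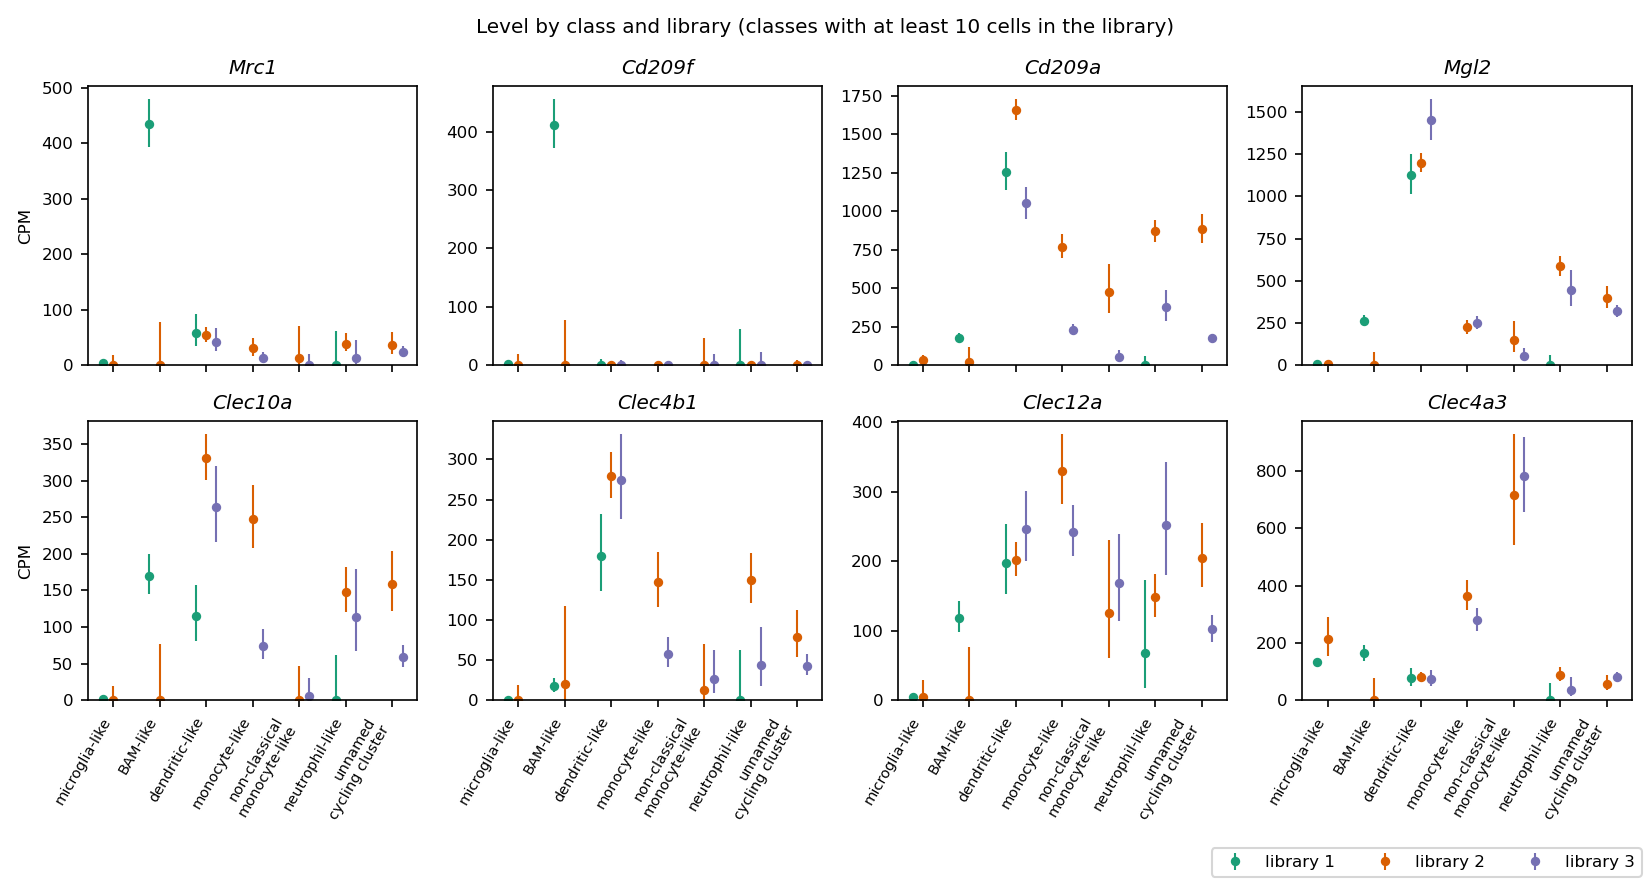
CPM of 8 lectin genes (vertical axes, each from 0) by class and library, for classes with at least 10 cells in the library, with exact Poisson 95% intervals for counting error (BAM: border-associated macrophage). Mrc1 and Cd209f stand above 400 CPM in library 1 alone, and Cd209a is higher in library 2 than in library 3 in the dendritic-like, monocyte-like and cycling cells.

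Clec9a was the rarest member. Clec9a (ENSMUSG00000046080, chromosome 6, 129408862 to 129424763) encodes DNGR-1, a receptor for the actin of dead cells that marks type 1 conventional dendritic cells. It had 44 UMIs in 30 cells. Its highest level, 11 CPM (7.0 to 16.6) in dendritic cell-like cells, overlapped that of neutrophil-like cells, 8.16 CPM (3.28 to 16.8), and with doublets kept neutrophil-like cells led. The gene overlaps Clec1b on the same strand, and 3.02% of its end windows also occur there. No cluster was named for type 1 dendritic cells, so cells with at least 2 UMIs of Xcr1, a chemokine receptor of that type, were counted instead. This count was chosen with the values known. There were 20 such cells, of which 3, 11 and 6 came from libraries 1, 2 and 3, and they held 32 of the 44 Clec9a UMIs (72.7%). They lay in 5 classes: 11 were dendritic cell-like, 4 in the cycling cluster, 3 neutrophil-like, 1 mature dendritic cell-like and 1 monocyte-like. All 8 cells with at least 2 Clec9a UMIs had Xcr1.

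The cells with Xcr1 carried a different set of lectins from the other 226 dendritic cell-like cells. Clec9a had 132 CPM (90.4 to 186) in them and 3.05 CPM (1.12 to 6.64) in the others. Clec12a had 277 CPM (214 to 351) and 209 CPM (189 to 230.1), with overlap. Cd209a had 3 UMIs, or 12.4 CPM (2.55 to 36.2), against 1565 CPM (1510.0 to 1621). Mgl2 had 2 UMIs, or 8.26 CPM (1.000 to 29.8), against 1309 CPM (1259 to 1361), and Clec10a 1 UMI against 301 CPM (277 to 326). Median depth was 11744 UMIs in the cells with Xcr1 and 8071 UMIs in the others. Irf8, a transcription factor of type 1 dendritic cells, had 1874 and 102 CPM.

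**Figure D5:**
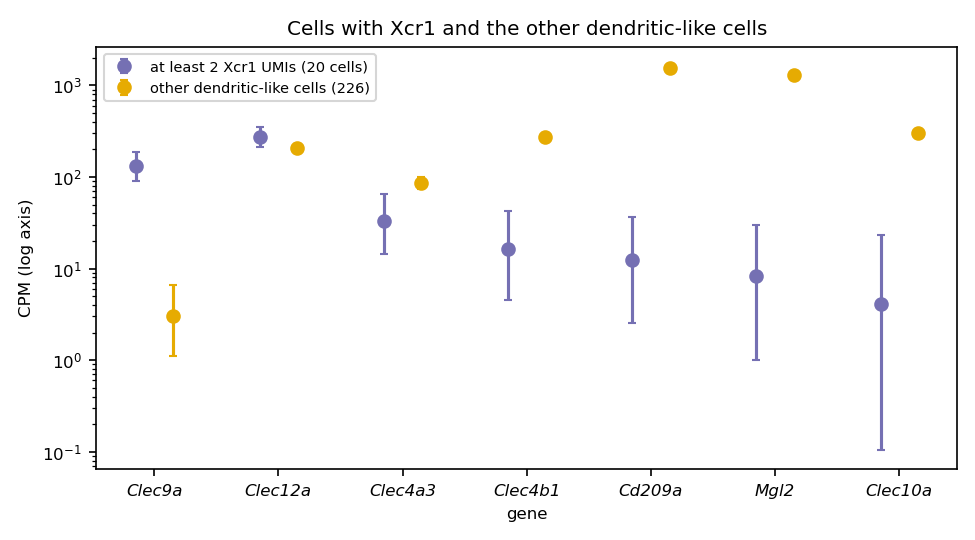
CPM (log axis) of 7 lectin genes in 20 cells with at least 2 Xcr1 UMIs (purple) and in the other 226 dendritic cell-like cells (yellow), with exact Poisson 95% intervals for counting error. Clec9a stood at 132 against 3.05 CPM, Clec12a intervals overlapped, and Cd209a, Mgl2 and Clec10a were far lower in the cells with Xcr1.

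Genes outside the family with the most similar pattern over the 15 clusters are a description. The clusters share libraries and differ in depth and size. For Cd209a they were Wfdc17 (Pearson's r = 0.937), Tnip3 (0.935) and the class II gene H2-Ab1 (0.927). For Clec4a3 they included Hfe (0.940) and Gngt2 (0.936), and for Clec12a they were Ccdc109b (0.924), Il1b (0.908) and Lilrb4a (0.879). Clec4b1 was most like Smim5 (0.966), Bcl11a (0.964) and Rgag4 (0.963), Clec10a like Smim5 (0.932), Dapk1 (0.909) and Hepacam2 (0.884), and Mgl2 like Eps8 (0.939), Smim5 (0.932) and Dapk1 (0.912). Mrc1 was most like the macrophage genes Cd163 (0.914), Ccl7 (0.886) and Pf4 (0.872). For Cd209f the genes were Dcn (0.998), 1500015O10Rik (0.996) and Igf2 (0.995), and these rested on the 17 cells of libraries 2 and 3 in the macrophage cluster, in which Cd209f itself had 0 UMIs. Without those cells, the genes most like Cd209f were Lyve1 (0.989), Adam33 (0.986) and Folr2 (0.985), Serpinb8 (0.880) took the place of Pf4 for Mrc1, and Smim5 was no longer among the 3 genes for Clec4b1, Clec10a or Mgl2.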

How the data were processed

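UMI counts per gene and cell were deposited by the authors as 1 matrix for all 3 libraries. Cell Ranger 2.0.1 and the build mm10 are named in the submitters' processing notes, and the kit, 10x Chromium 3′ v2, in the labels' protocols. The filter that called barcodes cells is not given in the sources used here. Of 2149 cells, 5 with under 500 detected genes or over 10% mitochondrial counts were left out. Scrublet (scanpy 1.11.5, expected rate 5%) called 7 of 2144 cells doublets (0.326%), a low yield. They were removed to leave 2137 cells, which may still hold doublets. Clustering used log-transformed counts per 10000, the 2000 most variable genes after all C-type lectin genes were taken out, 30 principal components and 15 nearest neighbours. Leiden clustering (resolution 0.5, igraph 0.11.9) gave 15 clusters.

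A marker counted for a cluster when a fraction of 0.3 of its cells had a UMI and its CPM reached 2 times the median cluster's. Classes needed 3 markers that counted, at least 1 of them among the cluster's 10 leading genes, and the most leading markers decided. This scoring was settled after the clusters had been seen, and classes so named end in "-like". By it the cycling cluster stayed unnamed. Shares of cells were taken after thinning to 2000 UMIs per cell, leaving out shallower cells (73 microglia-like, 16 NK cell-like and 1 dendritic cell-like). The members and gene lists were chosen with earlier results of these data known. Named beside the members were, for each with at least 50 UMIs, the 3 non-lectin genes whose log2(CPM + 10) over clusters correlated most with it. The measure of likeness and the thinning were tested on simulated data. Alternatives changed resolution, genes clustered, naming, filters, doublets, thinning, the summary of levels and the libraries used. A gene among those most like Clec4a3 is not reported here.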

Additional observations from a re-analysis of the deposited data

Results flagged for a closer look

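The 12 cells left out by the filters and the doublet calls are in none of the main values. The 7 called doublets among them were put back in the alternative with doublets kept. The 12 cells held 92 UMIs of the members, above the 3 that a count of 0 allows. Mgl2 had 41 of these UMIs in 4 cells and Cd209a 35 in 3 cells. Clec12a had 8 UMIs, Clec4a3 4, Clec4b1 3 and Clec10a 1, and Clec9a, Cd209f and Mrc1 had 0.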

How the results depend on the processing

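The count of members led outside microglia-like cells was 8 or 9 under every alternative run, and that of members with over 50% of UMIs in 1 class ranged from 4 to 8. The count detected in microglia-like cells, 8, was 2 without library 1, which leaves 51 such cells, and 8 under each other alternative run. The share of all genes was taken for the main setting only, so the counts under the alternatives are not results about the members. All 9 members kept their leading class at resolution 1.0, with at least 1000 genes or at most 5% mitochondrial counts per cell, by the mean of per-cell CPM, and without library 2, without library 3 or without the 17 macrophage-cluster cells of libraries 2 and 3, the last chosen after seeing the data. Without library 1, Mrc1 led in dendritic cell-like cells (51.7 CPM) and Cd209f had no UMIs. With cells named one by one, 13 cells were macrophage-like, too few for the order, and Cd209f led in microglia-like cells (52.5 CPM), Mrc1 in dendritic cell-like (59.3 CPM) and Clec9a in neutrophil-like cells (7.15 CPM). With lectins kept in the clustering, Clec12a and Clec9a led in an unnamed cluster of 40 cells (275 and 12.8 CPM). With doublets kept, Clec10a led in macrophage-like (219 CPM) and Clec9a in neutrophil-like cells (8.51 CPM). The cause of these changes was not tested. No paired analysis was possible because each group has 1 library and no label ties the libraries to groups. Depth limits Clec9a most, with 44 UMIs in all.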

Other observations

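Of 37 other C-type lectin or lectin-like receptors, 20 had at least 50 UMIs. In 19 of the 20 the highest level lay outside microglia-like cells (78.2% of all genes with at least 50 UMIs), and 8 had over 50% of UMIs in 1 class (35.9%). The exception was Clec5a, a receptor that pairs with the adaptor of Tyrobp, at 129 CPM in microglia-like cells. Border-associated-macrophage-like cells led for 6, among them Cd209g (124 CPM), Cd209b (71.6 CPM) and the scavenger receptor Colec12 (42.9 CPM). Clec4d and Clec4e, receptors for microbial glycolipids, led in neutrophil-like cells at 181 and 269 CPM. Clec4a1 led in non-classical monocyte-like cells at 409.6 CPM, as Clec4a3 did. Clec4a2 and Cd302 were also found in microglia-like cells, at 142 and 215 CPM.

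The 16 adaptors and signal carriers of these receptors all had at least 50 UMIs, and 11 were highest outside microglia-like cells, a share below the 78.2% of all such genes. Non-classical monocyte-like cells led for 8 of the 16 (11.7% of all such genes), including Fcer1g at 6127 CPM and Tyrobp at 5111 CPM, against 2925 and 3790.2 CPM in microglia-like cells. Microglia-like cells led for 5: Lyn (426 CPM), Inpp5d (244 CPM), Vav1 (168 CPM), Nfatc2 (37.2 CPM) and Card9 (27.0 CPM).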
